A study of Mus musculus with 9 samples.

Results

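Livers of mice given doxycycline (Dox) were compared with livers of mice given tetracycline (Tc) by RNA sequencing. All libraries labelled Dox or Tc entered the comparison, 3 of each, which are 6 of the 9 liver libraries of the series. The 3 control libraries stayed out of the contrast, and their values are given as background. Of 32285 gene identifiers measured, 12100 were compared, those whose mean over the 9 libraries was 10 normalized counts or more. A normalized count is a count of reads on a gene divided by the size factor of its library.

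The mice were Tet-OFF mice, a line in which a tetracycline-controlled transactivator (tTA) switches on a Venus and mCherry reporter unless Dox or Tc is present. They carried CAG-CreERT2 on a piggyBac insertion, a loxP-stop-loxP cassette before tTA, and tetO-Venus-ires-mCherry at Rosa26. The CAG promoter is active in most cell types, so the recombinase is not restricted to hepatocytes. Mice of all groups, the controls included, had received tamoxifen. The study describes the mice given Dox or Tc for these liver profiles as male, and the labels do not give the sex. At 4 weeks of age the Dox group drank 2 mg/mL Dox hyclate with sucrose for 7 days, and the Tc group drank Tc hydrochloride at the same concentration for the same time. The pair of compounds was therefore compared at 1 matched dose and 1 matched time, and drug taken in was not measured.

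Dox and Tc share a ring skeleton. Dox lacks a hydroxyl group that Tc carries, and carries one at a neighbouring position that Tc lacks. Both bind bacterial ribosomes and can slow the related ribosomes of mitochondria, and both hold tTA off its operator. Hepatocytes, the main cells of the liver, make most plasma proteins, store and release glucose and lipid according to feeding, and clear drugs through cytochrome P450 enzymes and conjugating enzymes. Acute-phase genes answer inflammatory cytokines there, and a set of sex-biased genes follows the pattern of growth hormone release.

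Recovered reads on genes ranged from 7426136 to 12183041 over the 9 libraries. Albumin (Alb), the defining hepatocyte product, ranged from 255548 normalized counts in Dox library 2 to 1093210 in Tc library 2 among the 6 treated livers. The Y-linked genes Kdm5d, Uty, Ddx3y and Eif2s3y were present in every library, and Xist, made by female cells, ranged from 2.3 to 44.1 normalized counts, highest in Tc library 2. In every group, library 3 could nearly be rebuilt by adding up libraries 1 and 2 of the group with fixed weights. The fitted weights of libraries 1 and 2 were 61.4% and 34.4% for Dox, 61.0% and 37.0% for Tc, and 58.4% and 41.7% for the controls. Of the genes at least 2-fold apart between libraries 1 and 2, library 3 lay between them for 4139 of 4264 with Dox (97.1%) and for 962 of 1022 with Tc (94.1%). In the controls the share was lower, 501 of 586 (85.5%). Mitochondrially encoded genes, given below, departed from this pattern. The study describes 3 independent samples per group, but values over libraries 1, 2 and 3 cannot be taken as values of 3 unrelated livers, and p-values that use libraries 3 are too small. Results are therefore given for Dox library 1 against Tc library 1 (pair 1) and Dox library 2 against Tc library 2 (pair 2) singly.

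Taken over all 6 libraries, no gene was differentially expressed between Dox and Tc in the main test. Limma on log2(normalized count + 1) called 0 of 12100 genes (0%) at an adjusted p under 0.05 and a fold over 2, and the smallest adjusted p was 0.274. An unadjusted p under 0.05 was reached by 1709 genes (14.1%). EdgeR on the recovered reads called 0 genes, with 1973 below an unadjusted p of 0.05. DESeq2 called 333 (2.75%), of which 140 (1.16%) were higher with Dox and 193 (1.6%) higher with Tc. Without libraries 3, limma and edgeR called 0 genes, with 183 and 231 at an unadjusted p under 0.05, while DESeq2 called 17, of which 4 were higher with Dox and 13 with Tc.

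Similarity was not shown either. The 95% interval of the Dox minus Tc difference lay within 2-fold in both directions for 6036 genes (49.9%), with a median half-width of 0.64 on the log2 scale. Without libraries 3 this held for 1772 genes, and the median half-width was 1.15. The spread between livers was wider with Dox: the median gene had an SD over 3 libraries of 0.38 log2 units with Dox, 0.18 with Tc and 0.16 in the controls.

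The 2 same-number pairs gave different accounts of how Dox and Tc livers differ. In pair 1, 783 genes (6.47%) were at least 2-fold apart, 292 higher with Dox and 491 higher with Tc. In pair 2 it was 3893 genes (32.2%), 1691 higher with Dox and 2202 higher with Tc. Across the 12100 genes the pair 1 and pair 2 differences were nearly unrelated, with Pearson's r = 0.03 and Spearman's rho = 0.02, a description over genes that are not independent replicates. Of the 454 genes at least 2-fold apart in both pairs, 235 had the same direction and 219 the opposite, so that 51.8% had the same direction.

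**Figure D1:**
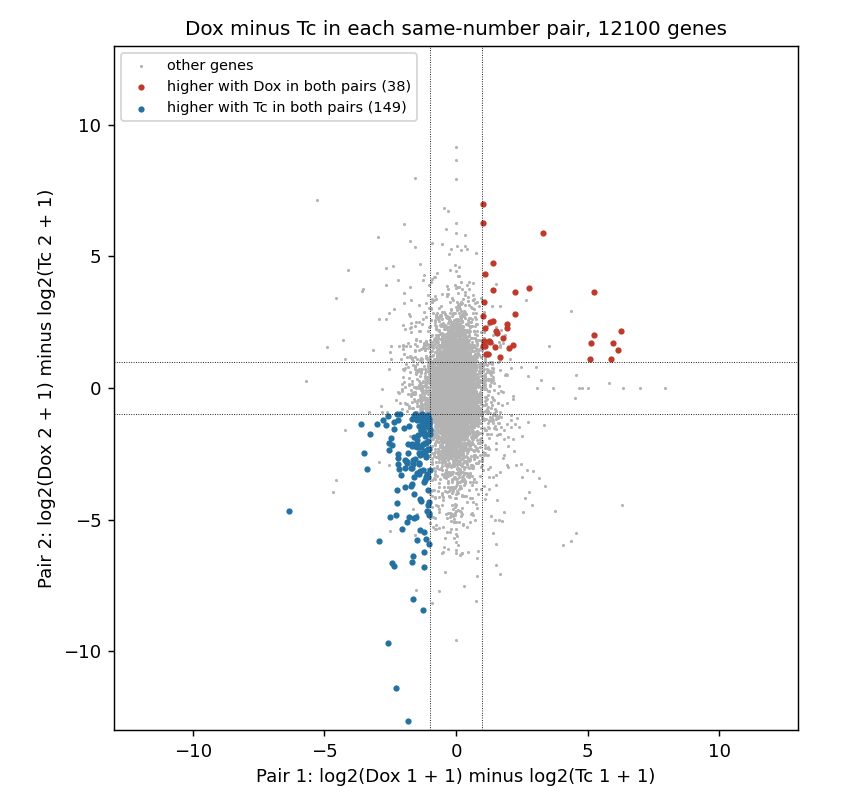
Each point is 1 of 12100 genes, placed by its log2(normalized count + 1) difference of Dox minus Tc in pair 1 (horizontal axis) and in pair 2 (vertical axis), with dotted lines at 2-fold. Red points are the 38 genes at least 2-fold higher with Dox in both pairs without overlap between the groups and blue points the 149 higher with Tc, and the cloud is taller than wide.

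Dox library 2 stood apart from every other library. It was at least 2-fold away from Dox library 1 for 4264 genes (35.2%), and from each Tc library for 3862 to 3899 genes. Dox library 1 was nearer to Tc library 1 (783 genes) than to Dox library 2. Tc libraries 1 and 2 were 2-fold apart for 1022 genes and control libraries 1 and 2 for 586. Of the 3893 genes apart in pair 2, 2914 (74.9%) were also apart between Dox libraries 1 and 2, and 613 (15.7%) between Tc libraries 1 and 2.

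**Figure D2:**
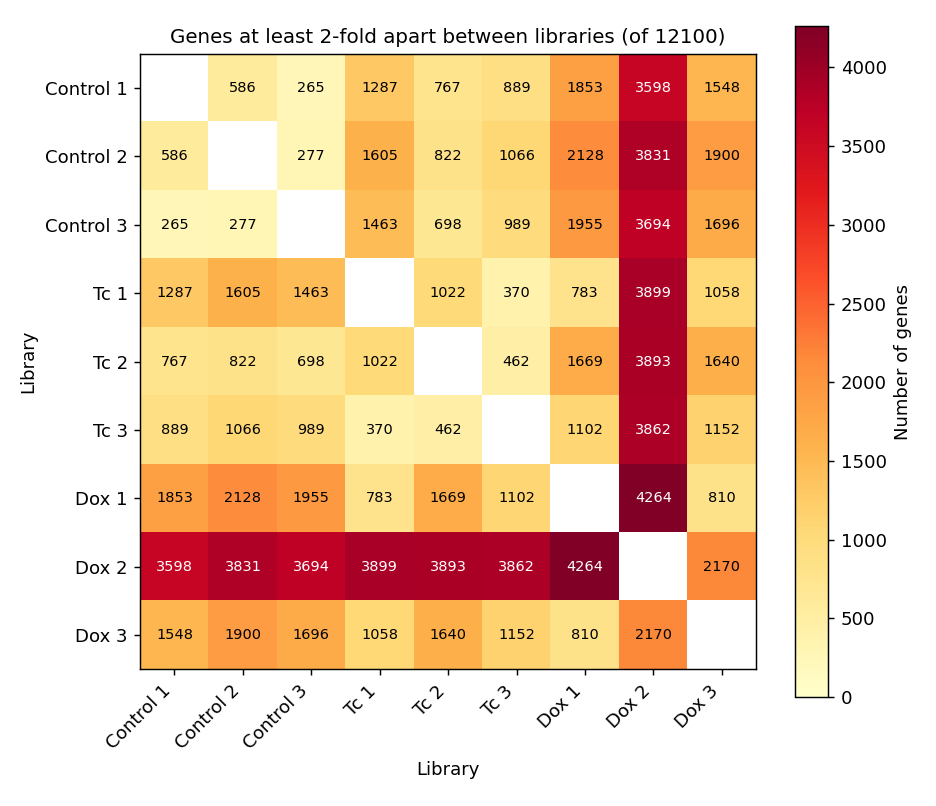
Each cell gives the number of the 12100 genes that were at least 2-fold apart between the library of its row and the library of its column, with darker red for more genes. The row of Dox library 2 is the darkest, from 2170 genes against Dox library 3 to 4264 against Dox library 1, while Dox library 1 and Tc library 1 differ by 783.

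Genes were next sought that separated Dox from Tc in both pairs. A gene was listed when it was at least 2-fold apart in the same direction in pair 1 and in pair 2 and its 3 Dox and 3 Tc values did not overlap. The list held 187 genes (1.55%), of which 38 (0.314%) were higher with Dox and 149 (1.23%) higher with Tc. Without the condition on libraries 3 it held 235, with 66 higher with Dox and 169 with Tc. Scaling every library to the same total instead of by size factors raised the median of all genes from -0.02 to 0.16, and the list then held 55 genes higher with Dox and 119 with Tc. Absence of overlap alone was met by 2973 genes (24.6%), 1475 higher with Dox (12.2%) and 1498 with Tc (12.4%). This split became 2254 to 1002 with equal totals and 1158 to 1850 with upper-quartile scaling. The control mean was nearer to Tc for 130 of the 149 genes higher with Tc and for 21 of the 38 higher with Dox.

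Etnppl, an enzyme that breaks down phosphoethanolamine and is known to be raised by fasting, led the genes higher with Dox. It measured 4959.6, 14226.9 and 8050.9 normalized counts in Dox libraries 1, 2 and 3, against 1041.9, 1143 and 1105 in the Tc libraries. Every Dox liver was above every Tc liver, as the rule of the list requires, and the controls (861.7 to 1431.1) lay beside Tc. Its fold of Dox over Tc on the log2(normalized count + 1) scale, used for all folds here, was 4.76 in pair 1 and 12.4 in pair 2. The mean log2 difference was 2.92 (SE 0.37, limma adjusted p = 0.274), and the adjusted p of DESeq2 was 2.0e-10 with all 6 libraries and 0.0023 without libraries 3. Etnppl (ENSMUSG00000019232) lies on chromosome 3 from 130617448 to 130637521 in GRCm38.

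Gsta2, an alpha glutathione transferase that conjugates electrophiles, was 295.9, 143.8 and 236.7 with Dox and 61.5, 19.8 and 43 with Tc. Both drugs stood above the controls, which were between 10.6 and 12.7, and reads it shares with close paralogs may have been dropped. Gsta2 (ENSMUSG00000057933, chromosome 9, 78331018 to 78355788) was 4.75-fold higher with Dox in pair 1 and 6.97-fold in pair 2. Klf10, a transcription factor induced by TGF-beta and by the clock, was 1007.7, 486.6 and 802.4 with Dox and 259.8, 98.9 and 170.1 with Tc. Within each drug, both genes were highest in library 1 and lowest in library 2. Tubb2a, a beta-tubulin, had 220.1, 356.6 and 247.2 against 56.6, 64.7 and 61.5 and a mean log2 difference of 2.12 (SE 0.22).

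A pair of stress genes was among them. Trib3, a pseudokinase induced by the transcription factor ATF4, was 176.9, 306 and 181.2 with Dox and 60.5, 66.5 and 75.8 with Tc, and the controls (141.6 to 201.1) lay nearer to Dox. Atf3, a stress-induced transcription factor, was 20, 270.3 and 122.3 with Dox and 6.8, 9 and 7.6 with Tc. The size of the Atf3 difference thus rested on Dox library 2, being 2.68-fold in pair 1 and 27.2-fold in pair 2. Dars, the cytosolic aspartyl-tRNA synthetase, was 711.8, 620 and 641.4 with Dox and 345.7, 202.3 and 257.7 with Tc.

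The signalling genes Rgs16 and Adora1 and the scaffold gene Frmd4b were also higher with Dox. Rgs16, a regulator of G protein signalling known to be raised in fasted liver, was 732.9, 4534.5 and 2056.1 with Dox and 274.4, 337.2 and 319.2 with Tc, with controls from 1997.4 to 2899.1. Adora1, the adenosine A1 receptor, was 544.4, 1344.7 and 836.7 with Dox and 221.7, 403.8 and 306.6 with Tc, and all treated livers were above the controls (106.8 to 151.4). Frmd4b was 604.4, 1814 and 1046.1 with Dox and 279.3, 601.6 and 400.9 with Tc, so that Dox library 1 exceeded Tc library 2 by only a few counts. Cyp26b1, which clears retinoic acid, was 75.8, 257.7 and 138.1 with Dox and 35.2, 11.7 and 23.6 with Tc. In each of these genes Dox library 2 was the highest library of the 6.

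Genes of other tissues appeared in the same list. Ttn, the giant sarcomere protein titin, was 552.8, 9.2 and 349.3 with Dox and 6.8, 2.7 and 4.2 with Tc, and the controls had 206.1 to 240.3. Lrit1, a leucine-rich repeat gene best known from retina, was 184.3, 10.4 and 98.5 with Dox and 3.9, 1.8 and 2.5 with Tc. The stomach mucosa genes Gkn1, Gkn2, Tff1 and Muc5ac, picked after their values were seen, had 57.9 to 75.8 normalized counts in Dox library 1 and 1.2 to 3.5 in Dox library 2. They had at most 1 in any Tc library and at most 1.1 in any control library. The sarcomere gene Actc1, a cardiac actin picked likewise, had 33.7, 2.3 and 20.2 with Dox and at most 0.8 with Tc, while the controls had 11.5 to 18. The 8 adipocyte and muscle markers summed to 33099.5, 15 and 20014.2 with Dox and 19707, 4328.1 and 12700.6 with Tc, against 1803.7 to 1918.5 in the controls. Nearly all of that was Car3, a carbonic anhydrase also made by liver, at 33016.3, 15 and 19946.5 with Dox and 19704, 4327.2 and 12699.8 with Tc. The part of other tissues in these values was not tested.

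Of the 14 named genes higher with Tc, 3 were cytochrome P450 genes and 3 acute-phase genes. Cyp2c39, a P450 of the mouse Cyp2c cluster, was 10.5, 86.3 and 44.9 with Dox and 927.7, 2213.1 and 1118.5 with Tc. That was 80.5-fold higher with Tc in pair 1 and 25.4-fold in pair 2, and its adjusted p with DESeq2 was 8.1e-10, or 7.6e-04 without libraries 3 (limma adjusted p = 0.274). The controls were themselves wide, from 111.1 to 1659.7. Cyp2c40 was 163.2, 269.2 and 218.2 with Dox and 747, 1533.2 and 894.4 with Tc, and Cyp2c69 was 68.4, 74.8 and 61.6 against 262.7, 1023.4 and 421.1. These P450 genes lie close together on chromosome 19, Cyp2c39 (ENSMUSG00000025003) from 39510862 to 39568529, and reads common to close copies may have been dropped. Ugt2b37, a glucuronosyltransferase with close copies on chromosome 5, was 32.6, 1.2 and 13.2 with Dox and 169.9, 230.2 and 168.4 with Tc.

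Cish had the smallest spread among the 14 named genes higher with Tc, by the SE of its difference. This inhibitor of cytokine signalling, a direct target of growth hormone through STAT5, was 124.3, 107 and 124 with Dox and 687.5, 397.5 and 511.2 with Tc. No Dox value came near a Tc value, and the controls (345.9 to 641.5) overlapped with Tc. The mean log2 difference was -2.13 (SE 0.23, 95% interval from -2.67 to -1.58, limma adjusted p = 0.274), with 5.50-fold in pair 1 and 3.69-fold in pair 2. DESeq2 gave an adjusted p of 2.0e-10, and 0.022 without libraries 3. Cish (ENSMUSG00000032578) lies on chromosome 9 from 107296026 to 107302784. Onecut1, a hepatocyte transcription factor that growth hormone also regulates, was 646.5, 104.7 and 490 with Dox and 2783.1, 1035.9 and 1951.4 with Tc.

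Several secreted or signalling proteins followed the same order. Enho, which encodes the peptide adropin, was 29.5, 59.8 and 48.4 with Dox and 163.1, 269.8 and 210.6 with Tc. Nucb2, the precursor of nesfatin, was 25.3, 44.9 and 29 with Dox and 119.1, 339.9 and 209.7 with Tc. Ptgds, a prostaglandin D synthase, was 14.7, 23 and 8.8 with Dox and 87.9, 719.4 and 329.3 with Tc. For all of these the highest Dox liver was below the lowest Tc liver, which the rule of the list requires. Mmd2, a gene of the progestin and adipoQ receptor family, was 46.3, 209.4 and 114.4 with Dox and 496.1, 1759 and 939.9 with Tc, and Phlda1, a pleckstrin homology-like domain gene, was 214.8, 74.8 and 161 against 829.1, 509 and 758.8. Mmd2 was highest in library 2 of each drug and Phlda1 was lowest there.

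**Figure D3:**
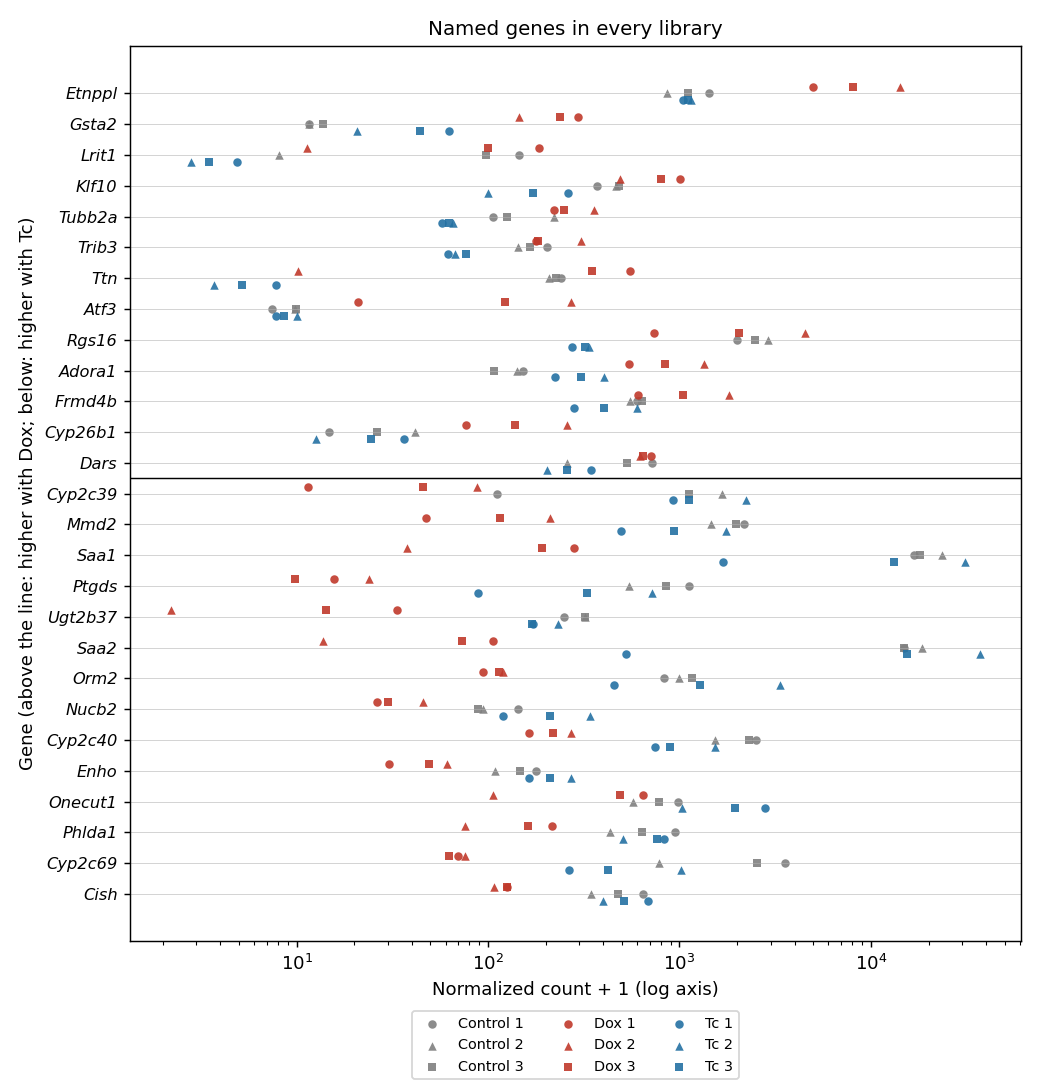
The 27 genes named by rule are rows, 13 higher with Dox above the line and 14 higher with Tc below it, and the horizontal log axis gives normalized count + 1 in each library (red Dox, blue Tc, grey control, with circle, triangle and square for libraries 1, 2 and 3). Red and blue symbols of a gene do not overlap, by the rule, and Cish has red symbols from 107 to 124.3 and blue ones from 397.5 to 687.5 before 1 was added.

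The acute-phase response separated the drugs in both pairs. Of 35 acute-phase genes, 22 were at least 2-fold higher with Tc in pair 2 and 10 in pair 1, while 7 and 0 were higher with Dox, and the median difference was -0.67 in pair 1 and -1.84 in pair 2. Over all genes the share at least 2-fold higher with Tc was 18.2% in pair 2 and 4.06% in pair 1, and the medians were -0.01 and 0.00. Hp, Hpx, Orm2, Saa1, Saa2 and Saa3 were on the list of genes higher with Tc in both pairs, and none on that higher with Dox. In bulk liver, fewer cells of a type and less RNA per cell cannot be told apart.

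Saa1 and Saa2, neighbouring serum amyloid A genes whose common reads may have been dropped, were the largest of these. Saa1 (ENSMUSG00000074115, chromosome 7, 46740497 to 46742980) was 281.1, 36.8 and 190 with Dox and 1695.2, 30975 and 13224.5 with Tc. Saa2 was 105.3, 12.7 and 72.1 with Dox and 522.4, 37158.3 and 15517.8 with Tc. The control libraries had 14812.8 to 23518.7 of these 2 transcripts each, so that Tc library 1 was also far below them. Orm2, the acid glycoprotein orosomucoid, was 93.7, 118.5 and 112.6 against 454.1, 3362.3 and 1277.6. The heme and hemoglobin scavengers Hpx and Hp were 33377.5, 56726 and 39277.9 against 68921.1, 156352 and 99802.7, and 17091, 33221.9 and 21809 against 39441.3, 105624 and 71691.2.

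Lcn2, a siderophore-binding protein of hepatocytes and neutrophils, overlapped between the drugs. It was 24.2, 376.1 and 141.6 with Dox and 141.6, 16168.7 and 5294.2 with Tc. Tc library 1 thus equalled Dox library 3, and controls had 5041 to 6067. The 10 neutrophil markers, a list that holds Lcn2 itself, summed to 29.5 to 531.4 with Dox and to 159.2 to 16304.5 with Tc. Without Lcn2 the other 9 summed to 5.3, 155.3 and 49.3 with Dox and to 17.6, 135.8 and 47.2 with Tc, which overlap. Of the 6 markers with a mean high enough to be tested, 1 did not overlap, Mpo, a neutrophil granule enzyme, at 0, 1.2 and 0.9 with Dox and 4.9, 9.9 and 6.7 with Tc, and 1 was at least 2-fold higher with Dox in pair 2. Of all genes 12.4% were higher in every Tc library and 14% at least 2-fold higher with Dox in pair 2. Each count of 1 is near its share. The part of neutrophils in the acute-phase difference was not tested.

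Many genes of the cell cycle had lower values with Dox. Of 31 such genes, 18 were lower in every Dox than in every Tc library and 1 was higher, against 12.4% and 12.2% of all genes. Of the 31, 8 were on the list higher with Tc in both pairs and none on the other. At least 2-fold higher with Tc were 19 in pair 2 and 9 in pair 1. The shares of all genes were 1.23% on that list, 18.2% in pair 2 and 4.06% in pair 1. Mki67, a marker of proliferating cells, was 25.3, 52.9 and 39.6 with Dox and 83, 250 and 129.7 with Tc, with controls from 92.1 to 150.4. Top2a, a DNA topoisomerase of dividing cells, was 13.7, 4.6 and 10.6 against 43.9, 56.7 and 47.2, and Ccna2, cyclin A, was 7.4, 5.8 and 6.2 against 23.4, 43.2 and 22.7. Each of these 3 genes is on the both-pairs list, whose rule requires lower values in every Dox liver than in every Tc liver. Cdkn1a, the cell cycle inhibitor p21, was highest in Dox library 2, with 12.6, 883.4 and 319.4 against 14.6, 21.6 and 23.6. With a minimum mean of 50 the median of this list went from -1.24 to -0.40.

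Fasting genes were mostly higher with Dox in pair 2 and mixed in pair 1. Of 39 genes raised by starvation, 25 were at least 2-fold higher with Dox in pair 2 and 6 in pair 1, against 14% and 2.41% of all genes. In the other direction 5 and 4 were higher with Tc, and the median was 1.49 in pair 2 and 0.07 in pair 1. The difference between the pairs was not tested, as each is 1 liver against 1. Igfbp1, an insulin-repressed binding protein for insulin-like growth factors, was 61.1, 82200.5 and 27852.2 with Dox and 209.9, 1709.5 and 766.4 with Tc. Pdk4, a kinase that shuts pyruvate out of oxidation in fasting, was 13.7, 1824.4 and 681.8 against 10.7, 31.5 and 18.5. Gadd45b, a stress and fasting gene, was 4.2, 899.5 and 341.4 against 5.9, 12.6 and 9.3. In all of them the Dox and Tc groups overlapped, with Dox library 1 below or beside the Tc libraries.

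Unlike Igfbp1, Pdk4 and Gadd45b, Cyp4a14, a fatty acid hydroxylase under PPAR-alpha, was at least 2-fold higher with Dox in both pairs. It was 1967, 15763.7 and 6653.8 against 93.7, 2081.8 and 837.2, although the groups overlapped. Trib3 was the list's member on the both-pairs list. Among gluconeogenic genes, Got1, an aspartate aminotransferase, was 1739.5, 39349.5 and 14499.7 against 2863.1, 1878.6 and 2410.4, and Tat, a tyrosine aminotransferase, was 13817.2, 159364 and 63626.8 against 15567.5, 28147.8 and 21794.9. The coactivator Ppargc1a was 108.5, 1463.2 and 604.4 against 126, 151.1 and 138.1. G6pc, which releases free glucose, was instead even among the Dox livers, with 7264.5, 6620 and 6889.6, against 3377.7, 4936.9 and 3922.2 with Tc. It was 2.15-fold higher with Dox in pair 1 and 1.34-fold in pair 2. Its groups did not overlap and its mean log2 difference was 0.78 (SE 0.20, limma adjusted p = 0.322).

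Most lipid synthesis genes were low in Dox library 2. Of 21 lipogenic genes, 15 were at least 2-fold higher with Tc in pair 2 and 0 in pair 1, and 3 were higher with Dox in pair 1. Beside them, 18.2% of all genes in pair 2 and 4.06% in pair 1 were higher with Tc, and 2.41% with Dox in pair 1. The 0 in pair 1 is thus near the share of all genes. Scd1, the stearoyl-CoA desaturase, was 165274, 225.5 and 101017 with Dox and 52575.3, 30034.4 and 40765.8 with Tc. Dox library 1 was thus the highest and Dox library 2 the lowest of the treated livers. Thrsp, an activator of fat synthesis, was 7962.7, 72.5 and 4947 against 10957.4, 4820 and 9219.7. The Dox and Tc values of both genes overlapped.

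Cholesterol synthesis and uptake genes were lower with Dox mainly in pair 2, with medians of -3.02 there and -0.26 in pair 1. Of 24 genes, 20 were at least 2-fold higher with Tc in pair 2, 2 in pair 1, and none higher with Dox. Over all genes 18.2% and 4.06% were higher with Tc, so the 2 in pair 1 are near that share. The groups did not overlap for 15 of the 24, all higher with Tc, beside 12.4% of all genes. Sqle, the squalene epoxidase of sterol synthesis, was 93.7, 11.5 and 55.4 with Dox and 293, 1040.4 and 559.2 with Tc, and controls (166.2 to 218.7) lay between. Its mean log2 difference was -3.78 (SE 0.82). Mvk, mevalonate kinase, was the other gene of the pathway on the both-pairs list, with 93.7, 71.3 and 96.8 against 203.1, 371.4 and 298.1. Cyp51, a sterol demethylase, was 587.6, 93.2 and 412.6 against 990.2, 2069.2 and 1441, and Idi1 and Fdps, which act between mevalonate and squalene, were in the same order in both pairs.

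Cyp7a1, the rate-limiting enzyme that turns cholesterol into bile acids, was also higher with Tc. It was 945.6, 131.1 and 640.5 with Dox and 3308.4, 3965.7 and 2877.9 with Tc, and the controls (786.5 to 1850.3) overlapped with Dox. Of the 23 bile acid genes it was the only one on the both-pairs list, which held 1.55% of all genes. Nr0b2, the repressor SHP, was 176.9, 484.3 and 279.8 with Dox and 20.5, 277.9 and 127.2 with Tc, with overlap. Without Dox library 2 the median of this list turned from -0.32 to 0.12.

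**Figure D4:**
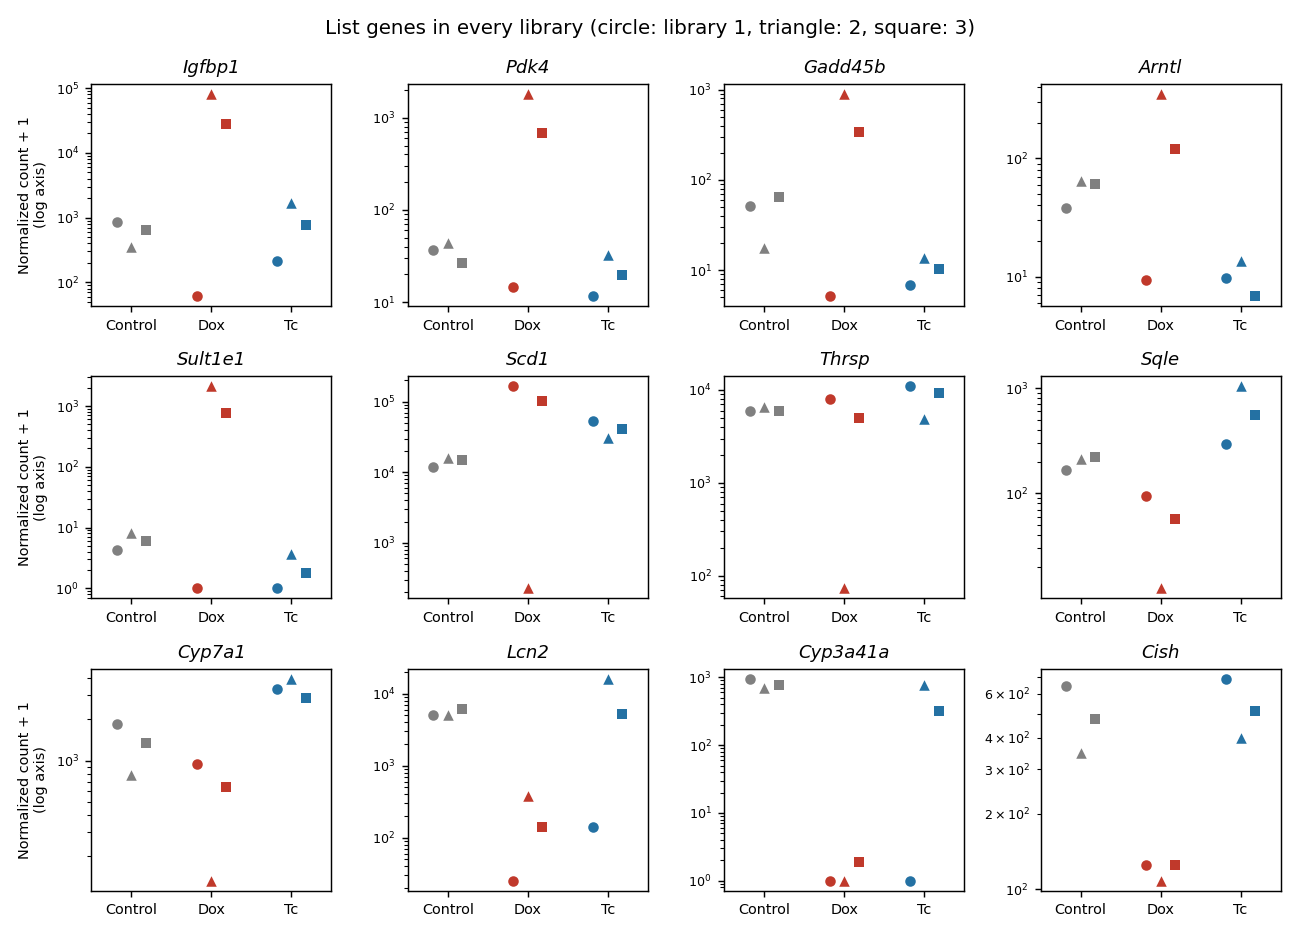
Each panel shows 1 gene of the lists, with normalized count + 1 on a log axis for Control, Dox and Tc, and a circle, triangle and square for libraries 1, 2 and 3. Igfbp1, Pdk4, Gadd45b, Arntl and Sult1e1 have the Dox triangle on top, Scd1 and Thrsp have it at the bottom, and in Sqle, Cyp7a1 and Cish all Dox symbols lie below all Tc symbols.

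Sex-biased genes varied among livers within each drug. The 26 female-biased liver genes had medians of -1.44 in pair 1 and -1.54 in pair 2. In each pair 15 of them were at least 2-fold higher with Tc. In the other direction 5 in pair 1 and 7 in pair 2 were higher with Dox. Over all genes 4.06% in pair 1 and 18.2% in pair 2 were 2-fold higher with Tc, and 2.41% and 14% with Dox. Of the 26, 3 did not overlap, all higher with Tc, which is near the 12.4% of all genes. A1bg, a plasma protein gene of this list, was 1.1, 2.3 and 1.8 with Dox and 3.9, 1141.2 and 449.7 with Tc, and Tc library 1 was as low as a Dox liver to within a few counts. Cyp3a41a, a female-biased P450 with close copies, was listed at 0, 0 and 0.9 with Dox and at 0, 767.1 and 314.1 with Tc. Cyp3a44, another P450 of that cluster, was 2.1, 11.5 and 1.8 against 7.8, 2575.5 and 800.9. Abcd2, a peroxisomal fatty acid transporter, was 55.8, 357.7 and 169.8 against 392.6, 830 and 534, without overlap.

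Male-biased genes had medians of opposite sign, 0.29 in pair 1 and -2.84 in pair 2 over 24 genes. Serpina1e, a protease inhibitor with close paralogs, was 1780.6, 1064 and 1431.4 with Dox and 2086.8, 31493 and 12538.9 with Tc. Nudt7, a peroxisomal coenzyme A hydrolase, was 5290.2, 141.5 and 3280.7 against 7667.6, 3100.7 and 4945.5. Of the 16 growth hormone and IGF axis genes, Cish and Onecut1 were on the both-pairs list, which held 1.55% of all genes. Igfals, which binds IGF1 complexes in plasma, was 1124.6, 49.5 and 724.1 with Dox and 1915.9, 1868.7 and 1868.9 with Tc, so that all Dox livers were below all Tc livers.

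Stress pathways were mixed. Of 24 ATF4 targets, Atf3 and Trib3 were higher with Dox in both pairs and Chac1, a glutathione-degrading enzyme, was higher with Tc, at 19, 34.5 and 13.2 against 86.9, 70.1 and 80.9. The both-pairs list held 0.314% of all genes as higher with Dox and 1.23% as higher with Tc. Ddit4, an inhibitor of mTORC1, was 49.5, 5791.8 and 2130 against 87.9, 306.6 and 215.6, with overlap. The list's median was -0.04 in pair 1 and 0.87 in pair 2. Of 23 genes of the endoplasmic reticulum unfolded protein response, 14 were at least 2-fold higher with Tc in pair 2 and 1 in pair 1. Of all genes 18.2% and 4.06% were, so the 1 in pair 1 is near that share. The gene apart in pair 1, Derl3, which acts in degradation of misfolded proteins, was 5.3, 5.8 and 4.4 with Dox and 16.6, 363.3 and 128 with Tc. Sdf2l1, an endoplasmic reticulum chaperone cofactor, was 206.4, 94.3 and 174.2 against 323.2, 622.3 and 501.1, without overlap.

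In the promoters of the named genes of both directions, and in all mouse promoters for comparison, the 250 bases before each RefSeq start (GRCm38.p6) were searched on both strands for TGATGNAAN, a form of the composite C/EBP and ATF element chosen after the values were seen. The motif was in 3.44% of 32851 mouse promoter windows. Among the named genes higher with Dox it was in 2 of 16 windows, those of Atf3 and Frmd4b, and among those higher with Tc in 0 of 13. The 2 matches are printed 5′ to 3′ on the gene's strand with the motif, or its reverse complement, in capitals. They lie at chr1:191183400-191183480 and chr6:97617785-97617865, both on the minus strand, and the matches began 111 and 172 bases before the start.
Atf3: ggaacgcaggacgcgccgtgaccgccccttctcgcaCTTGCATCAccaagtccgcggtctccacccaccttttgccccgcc
Frmd4b: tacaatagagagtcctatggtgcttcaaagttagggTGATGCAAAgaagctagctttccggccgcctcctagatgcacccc
A match is a description of letters and not of a bound site.

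Genes of mitochondrial respiration and translation had medians near 0. Of 37 nuclear genes of complex I, 39 of complexes II to V and 77 of mitochondrial ribosomal proteins, none was on the both-pairs list, which held 1.55% of all genes and so is near 0 for lists of this size, and the medians of Dox minus Tc were -0.10, 0.05 and -0.08. With equal totals the first and last of these changed sign, to 0.07 and 0.09. Of the 7 mitochondrially encoded genes tested, 0 were 2-fold apart in either pair, and the median was 0.32 in pair 1 and 0.17 in pair 2. The transcript of mt-Nd1, a complex I subunit, was 23288.8, 32945.8 and 25507.6 with Dox and 17364.3, 19264 and 9693.9 with Tc, without overlap (log2 difference 0.86, SE 0.35, 95% interval from 0.02 to 1.70, limma adjusted p = 0.351). The pair differences were 0.42 and 0.77, and without Tc library 3 the difference was 0.56. Tc library 3 lay outside the range of Tc libraries 1 and 2 for 7 of the 7 mitochondrially encoded genes, as did control library 3 for 7 and Dox library 3 for 3, so library 3 could not be rebuilt in this way for those genes. For mt-Nd2 the groups overlapped, at 26047.7, 19617.2 and 21931.2 against 19572.2, 21567.9 and 10521.

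Among 18 mitochondrial chaperones and proteases, 4 were higher in every Dox than in every Tc library and 0 were lower, beside 12.2% and 12.4% of all genes. Clpx, the unfoldase of the matrix protease ClpXP, was 680.2, 2285.6 and 1196.5 with Dox and 480.4, 515.3 and 536.5 with Tc. Grpel2, a cofactor of the matrix Hsp70, was 538.1, 663.7 and 528.7 against 351.5, 331.8 and 301.5, with a mean log2 difference of 0.81 (SE 0.15). Hspd1, the matrix chaperonin Hsp60, was 3207.4, 3013.8 and 2981.6 against 3526.2, 3004.4 and 3205.5, with overlap. Cytosolic ribosomal protein genes had a median of 0.07 in pair 1 and 0.64 in pair 2 over 76 genes, and 8 were higher in every Dox library, against 0 in every Tc library, where 12.2% and 12.4% of all genes were, so the first count is near that of all genes. Rpl36 was 597, 1562.1 and 866.6 against 516.6, 536.9 and 534, and many of these genes have processed pseudogenes that could take reads.

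Drug metabolism did not move one way. Of 40 targets of the receptors CAR and PXR, 15 were at least 2-fold higher with Dox and 13 with Tc in pair 2, and 1 and 5 in pair 1. Of all genes it was 14% and 18.2% in pair 2, and 2.41% and 4.06% in pair 1. The 1 higher with Dox in pair 1 is thus near the share of all genes. Cyp2c39 and Alas1, the rate-limiting enzyme of heme synthesis, were on the both-pairs list higher with Tc, beside 1.23% of all genes. Alas1 was 6826.5, 2357 and 5137.9 with Dox and 13893.8, 11599.6 and 12895.2 with Tc, and the controls had 2863.7 to 4639.5. Sult1e1, the estrogen sulfotransferase, was listed at 0, 2115.4 and 753.1 with Dox and at 0, 2.7 and 0.8 with Tc. Gstm1, a mu glutathione transferase with close copies, was 13691.9, 7319.4 and 10745.7 against 7816, 3552.1 and 5787.7.

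Among 18 core clock genes, 6 were higher in every Dox library and 2 in every Tc library, beside 12.2% and 12.4% of all genes, and the 2 are near that share. Nr1d1, the repressor REV-ERB alpha, was 1069.8, 1567.9 and 1090.1 with Dox and 610.3, 482 and 496.1 with Tc, with a mean log2 difference of 1.21 (SE 0.20). Bhlhe40, a clock repressor, was 4029.8, 1548.3 and 2911.2 against 1076.1, 1061.1 and 1032.6. Arntl, the activator BMAL1, was 8.4, 349.7 and 117.9 against 8.8, 12.6 and 5.9, and Dbp, an output of BMAL1, was 1745.8, 223.2 and 1113.8 against 1673.7, 1511.7 and 1669.3. In the last pair of genes Dox library 1 matched Tc library 1, and Dox library 2 was high for Arntl and low for Dbp. Times of tissue collection were not among the labels.

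Complement, coagulation and interferon-stimulated genes were lower in Dox library 2. Of 37 complement and coagulation genes, 26 were at least 2-fold higher with Tc in pair 2 and 0 in pair 1. Of 34 interferon-stimulated genes it was 26 and 1, and of all genes 18.2% and 4.06%. C4b, a complement component, was 16531.8, 5361.6 and 11951.9 with Dox and 25690, 31378.8 and 28709.5 with Tc. C8a, a subunit of the membrane attack complex, was 8939.8, 203.6 and 5637.7 against 10439.9, 9096 and 10424.1. Gbp7, an interferon-induced GTPase, was 156.9, 61 and 125.8 against 259.8, 383.1 and 277.1, and Psmb8, an immunoproteasome subunit, was 184.3, 51.8 and 118.8 against 278.3, 295.9 and 320. Iigp1, another interferon-induced GTPase, was 2965.2, 219.7 and 1910 against 3358.2, 2993.6 and 2825.6. Of these 5 genes Iigp1 overlapped between the drugs. Over the lists, 20 of the 37 complement and coagulation genes and 11 of the 34 interferon-stimulated genes were higher in every Tc library. In every Dox library 0 and 2 were higher. Over all genes these shares were 12.4% for Tc and 12.2% for Dox.

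**Figure D5:**
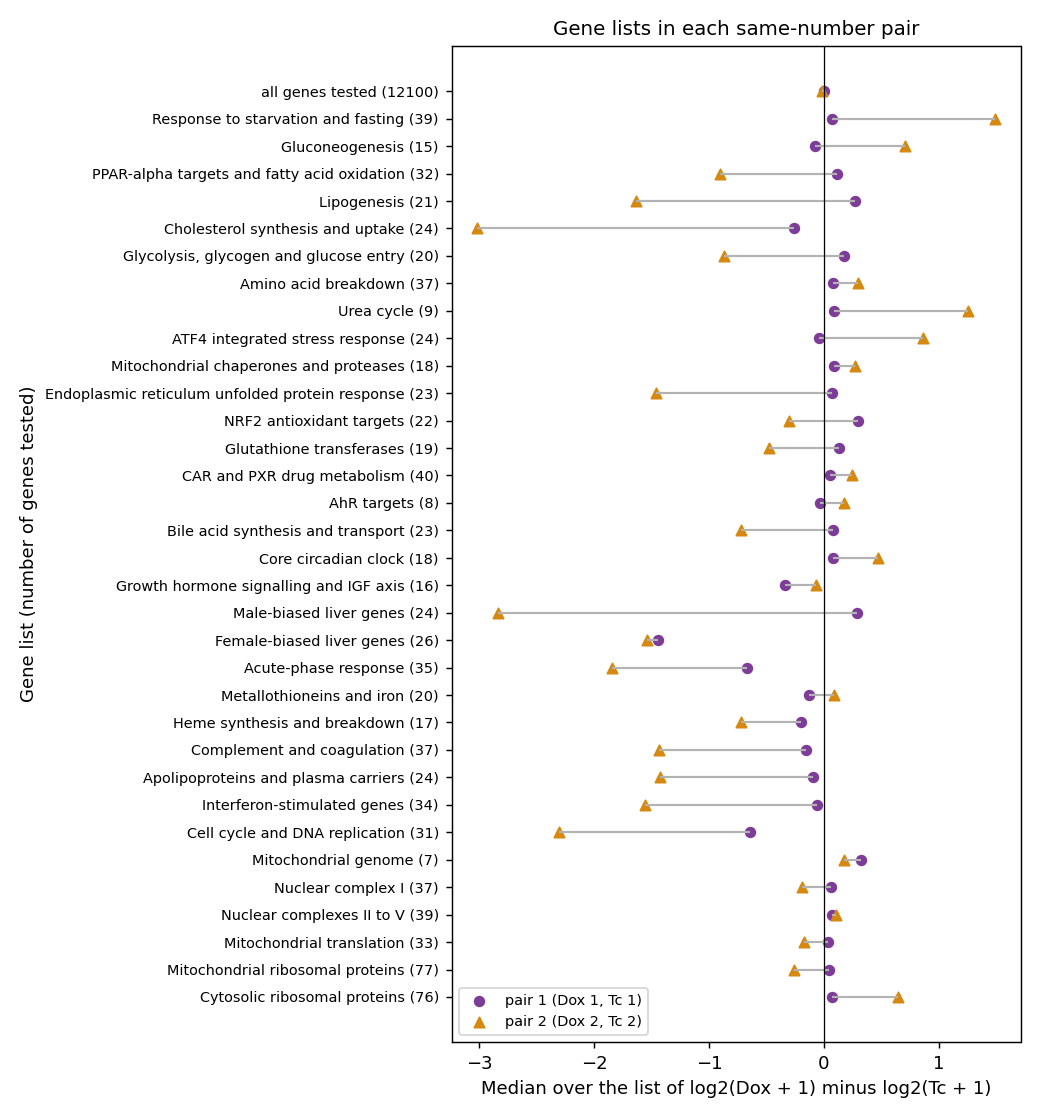
Rows are gene lists with the number of genes tested, and the horizontal axis is the median over the list of log2(normalized count + 1) with Dox minus Tc, with a circle for pair 1 and a triangle for pair 2. Cholesterol synthesis spans -0.26 to -3.02, starvation genes 0.07 to 1.49, and female-biased genes sit at -1.44 and -1.54, beside 0.00 and -0.01 for all genes.

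Opposite differences in the pairs were as frequent as shared ones. The genes that follow were picked after their values were seen. Mug2, a murinoglobulin protease inhibitor with close copies, was 16715.1 with Dox and 210.9 with Tc in pair 1, and 491.2 with Dox and 10585.2 with Tc in pair 2. Selenbp2, a selenium-binding protein gene with a close copy, was 4958.5 against 208 in pair 1 and 12.7 against 626.8 in pair 2. Myc, the growth-promoting transcription factor, was 14.7 against 270.5 in pair 1 and 1855.4 against 80.9 in pair 2, and the stress gene Gadd45g was 13.7 against 347.6 and 2336.3 against 215.8. In each of these genes both pairs were at least 2-fold apart, and the larger shift from one library to the next of the same drug was between the Dox livers in Selenbp2, Myc and Gadd45g and between the Tc livers in Mug2.

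Among markers of other liver cells, the sinusoidal endothelial sum separated Dox from Tc, and the Kupffer, stellate and hepatocyte sums overlapped. The 10 sinusoidal endothelial markers summed to 3636 to 4272.2 normalized counts with Dox and 5632.5 to 6790.3 with Tc. Of the 10, 6 were higher in every Tc library, beside 12.4% of all genes. Stab2, a scavenger receptor of these cells, was 820.3, 867.3 and 818.2 with Dox and 1429.6, 1721.2 and 1492.4 with Tc, with a mean log2 difference of -0.88 (SE 0.14), while Lyve1 was higher with Dox at 96.9, 318.6 and 181.2 against 86.9, 101.6 and 80, with overlap. The 10 Kupffer cell markers summed to 2746.2 to 9216.2 with Dox and 4844.5 to 9512.4 with Tc. Of these, 1 did not overlap, higher with Tc, which is near the 12.4% of all genes. At least 2-fold higher in pair 2 were 1 with Dox and 1 with Tc, beside 14% and 18.2% of all genes. In pair 1 it was 0 and 1, beside 2.41% and 4.06%, and the medians were -0.78 in pair 1 and -0.16 in pair 2. The non-overlapping marker was Clec4f, a lectin of these cells, at 623.4, 899.5 and 688 against 1082.9, 1993.7 and 1597.7. The 11 stellate cell markers summed to 4213 to 5366.2 with Dox and 5087 to 5743.6 with Tc. Of these, 3 were higher in every Tc library and 1 in every Dox library, beside 12.4% and 12.2% of all genes. The 1 is near that share. The median of the mean log2 differences was -0.63 for this list and -0.53 for the endothelial list. Lower values with Dox were thus not limited to the endothelial list. The 10 hepatocyte markers summed to 710201 to 898326 with Dox and 897789 to 1338250 with Tc, and 0 of them were on the both-pairs list. The part of these cells in the other results was not tested.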

How the data were processed

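Gene expression was measured by RNA sequencing in 3 Dox, 3 Tc and 3 control livers, grouped by their titles. According to the study's methods and the submitters' processing notes, the authors trimmed single-end reads with cutadapt, aligned them to mm10 with STAR, counted uniquely mapped reads per gene with HTSeq 2.0.5 and normalized with DESeq2 1.42.0. The values the authors deposited are a signal, gene counts divided by 1 size factor per library, and all columns were used. Unique mapping drops reads shared by close paralogs. Whole reads were recovered for 100% of values, within 0.01 reads. Intervals from counting error are not given, since spread between livers is what the tests measure.

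Log2(normalized count + 1) of the 6 Dox and Tc libraries was tested with limma 3.58.1 (trend) in R 4.3.3, with Benjamini-Hochberg adjustment over 12100 genes, and the recovered reads with DESeq2 1.42.0 and edgeR 4.0.16. The tests were checked on simulated counts. The members, gene lists and rules were chosen with earlier results of these data known, and the lists are given by counts and medians with no test.

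Deviations of same-numbered Dox and Tc libraries from their group means had r = 0.29, 0.32 and 0.18 across genes, against -0.08 to 0.07 for control with drug libraries. Crossed libraries had r = -0.30 (Dox library 1 with Tc library 2) and -0.28 (Dox library 2 with Tc library 1). Deviations within a group cancel out, so same-number and crossed values mirror each other. They cannot show that the numbers, taken from the titles, pair the samples. The replicate number was added as a block in an alternative. Libraries 3 being near sums of the others, these values are not independent. The labels do not say what the numbers share.

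Named genes were, among genes with symbols, a mean of at least 50 and a place on the both-pairs list, up to 14 per direction with the largest smaller pair difference (13 qualified for Dox), and up to 4 members of each list with the largest mean difference. Other both-pairs, marker and list genes (Gkn1, Gkn2, Tff1, Muc5ac, Actc1, Mpo, Saa3, Mug2, Selenbp2, Myc, Gadd45g, Top2a, Ccna2, Mvk, Abcd2, Hspd1) were chosen after their values were seen. Symbols and GRCm38 coordinates (GENCODE M21) were found for 32158 of 32285 identifiers. Alternatives covered the pseudocount, filter, scaling, test, block, weights, the groups in the fit and each library left out.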

Additional observations from a re-analysis of the deposited data

How the results depend on the processing

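The number of genes called between Dox and Tc was 0 in the main test, with smaller or larger pseudocounts, with a minimum mean of 50, with either other scaling and with edgeR, and it depended on the model. It was 19 with no filter on low values, 26 with all 9 libraries in the fit and 1049 with array weights. With all 9 libraries and the replicate block it was 0, but each control then had its own block and added no spread. That fit cannot show what pairing does to the 26 calls. The number was 333 with DESeq2, and 17 with DESeq2 without libraries 3, where 1408 genes had no adjusted p. With an unadjusted p and the fold limit it was 600. With the replicate block limma and edgeR called 0 genes, while 1587 and 1592 were below an unadjusted p of 0.05, and DESeq2 243, so that in limma on the 6 libraries and in edgeR there was no call for the pairing to change. With 1 library left out the count ranged from 0 to 59: 21 without Dox library 1, 59 without Dox library 2 and 0 without each of the others. The cause was not tested. The 187 genes of the both-pairs list became 95 with a pseudocount of 8, 423 with no filter and 81 with a minimum mean of 50. The number of genes with no overlap between Dox and Tc ranged from 3279 to 6503 with 1 library left out, the highest without Dox library 1, where fewer libraries alone raise the count. With no filter the same-number pairing of Dox and Tc libraries 1, 2 and 3 had correlations of 0.190, 0.212 and 0.0551, the last below 0.1. The share of genes in the same direction was 47.0% with a pseudocount of 8. In pair 2, equal totals gave 2905 genes higher with Dox and 1498 with Tc. Of 103 named genes with a Dox minus Tc difference, only Scd1 changed sign (main log2 difference -1.36): 1.31 with array weights, 1.11 with DESeq2, 1.13 with edgeR, 1.0025 and 0.99 without libraries 3 in these count tests, and -3.07 to 1.69 with 1 library left out, the highest without Dox library 2. Of 36 list medians 11 moved by more than their spread with equal totals. Those of the growth hormone axis, metallothioneins, complex I, mitochondrial translation, mitochondrial ribosomal proteins and pericentral genes then changed sign. Depth was at least 7426136 reads per library, and no alternative with fewer reads was run.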
